A study of Mus musculus with 5 samples.

Results

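Transcripts of 8 genes that mark alveolar type 1 cells, Ager, Aqp5, Pdpn, Hopx, Rtkn2, Cav1, Emp2 and Gprc5a, were read on 5 Affymetrix whole-genome mouse arrays. They were found by symbol in the platform's probe annotation and are 8 of 18193 genes with a symbol of their own. They carry 12 of the 45037 probe sets that are not controls. Earlier results on these arrays had shown them high on the arrays KA/KA 2, KA/KA 3 and WT 2. The genes were thus selected on the difference between those arrays and the other two, which is given as a description with no test.

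The samples are labelled as bone marrow cells of mice aged 4 weeks on the FVB background. KA/KA denotes homozygous carriers of a kinase-dead knock-in of IKKα, a kinase of the NF-κB pathway (3 arrays), and WT their wild-type littermates (2 arrays). By the labels' protocol, in both groups marrow of tibia and femur was freed of red cells and B220+ cells, B220 being a surface protein of developing B cells, were enriched on magnetic beads, from which 150 ng of RNA was labelled. Whether the RNA of an array came from a single mouse or from several is not stated. Each p-value below reflects array-to-array spread, part of which may be technical.

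Control probe sets for added poly-A RNA of bacterial origin divided the arrays into 2 sets, each with both genotypes. Their median signal was 136 on KA/KA 2, 249 on KA/KA 3 and 46.9 on WT 2, while KA/KA 1 had 11897 and WT 1 had 7305. The first 3 are called the low-spike arrays below and the other two the high-spike pair. The B lineage of the sample label was weakly represented on the low-spike arrays: the 7 measured B lineage markers (Cd79a, Cd79b, Vpreb1, Igll1, Rag1, Ebf1 and Pax5) were all over 1 log2 unit lower there than on either array of the high-spike pair. Their summed signal was 1076 on KA/KA 2, 2990 on KA/KA 3 and 1489 on WT 2, while KA/KA 1 had 40326 and WT 1 had 51137. Rag1, a recombinase gene expressed in early B cells, was at the floor on the low-spike arrays (log2 values of 4.09, 4.09 and 4.10). Surfactant and other alveolar type 2 markers were bright on the same arrays, with a summed signal over 6 genes of 122812 on KA/KA 2, 110870 on KA/KA 3 and 71903 on WT 2, while KA/KA 1 had 4565 and WT 1 had 4340. The marker genes of these 3 arrays thus went against the labelled marrow B220+ cells and were those of lung, and KA/KA and WT are used for them as the labels give them. Genotypes were therefore compared first within the low-spike arrays, where the alveolar genes were measured well above the array median, and then over all 5 arrays.

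Alveolar type 1 cells are the thin, flat epithelial cells that cover most of the gas-exchange surface of the lung, and they lie against capillaries across a shared basement membrane. They can be replaced from the surfactant-producing alveolar type 2 cells. Several of their marker genes are also used elsewhere: Cav1 in endothelium and smooth muscle, Pdpn in lymphatic endothelium and mesothelium, and Hopx in the heart. They are not cells of the bone marrow. In bulk RNA, fewer cells of a type and less RNA per cell cannot be told apart.

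RefSeq promoter windows (GRCm38.p6, 250 bases before to 50 after a start) were at hand for 6 of the 8 genes, 8 windows in all; Rtkn2 and Gprc5a were not matched. Ager, one Hopx start and Aqp5 are printed 5′ to 3′, because Ager was the most alike between genotypes by its brightest probe set, Hopx carried the one match to an epithelial factor and Aqp5 differed most. Capitals mark a match to one of the motifs searched.
Ager, chr17:34597600-34597899, plus strand: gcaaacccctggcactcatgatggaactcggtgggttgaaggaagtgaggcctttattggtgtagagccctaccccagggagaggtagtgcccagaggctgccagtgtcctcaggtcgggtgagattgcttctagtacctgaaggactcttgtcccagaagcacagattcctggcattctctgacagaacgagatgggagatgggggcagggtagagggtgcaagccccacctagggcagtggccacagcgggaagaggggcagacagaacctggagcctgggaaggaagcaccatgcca
Hopx, chr5:77095218-77095517, minus strand: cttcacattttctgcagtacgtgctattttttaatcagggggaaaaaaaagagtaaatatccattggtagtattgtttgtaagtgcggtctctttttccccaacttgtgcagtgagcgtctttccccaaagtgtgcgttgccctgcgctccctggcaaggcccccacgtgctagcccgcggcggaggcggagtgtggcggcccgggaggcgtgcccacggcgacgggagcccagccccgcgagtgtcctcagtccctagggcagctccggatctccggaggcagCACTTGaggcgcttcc
Aqp5, chr15:99590778-99591077, plus strand: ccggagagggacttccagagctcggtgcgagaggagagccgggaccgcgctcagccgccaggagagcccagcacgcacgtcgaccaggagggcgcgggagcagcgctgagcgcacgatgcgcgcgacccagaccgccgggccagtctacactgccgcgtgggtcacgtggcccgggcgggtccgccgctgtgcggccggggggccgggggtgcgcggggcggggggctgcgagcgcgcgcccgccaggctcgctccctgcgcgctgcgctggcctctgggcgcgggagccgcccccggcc

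The motifs, searched on both strands, were GGAATG for TEAD factors, which act with YAP and TAZ, CAAGTG for the lung factor NKX2-1, TGANTCA for AP-1, TATAAA for the TATA box and AGATAA for GATA factors. Of the 8 windows, 1 held the NKX2-1 letters, on the reverse strand of the Hopx window after the start, where 13.6% of 32851 windows of the same length hold them. A TATA box match lay in 1 Cav1 window, reversed and 221 bases before the start (13.6% of all windows). TEAD (14.7%), AP-1 (7.81%) and GATA letters (11.2%) were in none of the 8. The GC content was 79.7% in the Aqp5 window, 58.3% in that of Ager and 59% in that of Hopx, and its median over all windows was 52.7%. These are descriptions of letters in a window, not of sites in use.

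All 8 genes, and all 12 probe sets, were over 1 log2 unit higher on every low-spike array than on either array of the high-spike pair. This held for 13% of the 22519 probe sets kept, and since it is the contrast that chose the genes, nothing is read from it. Differences of set means on the log2(signal + 16) scale ran from 2.09 for Gprc5a to 8.38 for Ager. All 12 probe sets passed the filter on dim signals, which lay at 7.04 over the 5 arrays. The high-spike means of Hopx (9.58 and 8.89), Emp2's brightest probe set (8.04), Rtkn2 (7.64) and Cav1 (7.37) already exceeded this level. The other probe sets passed through the low-spike arrays.

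**Figure D1:**
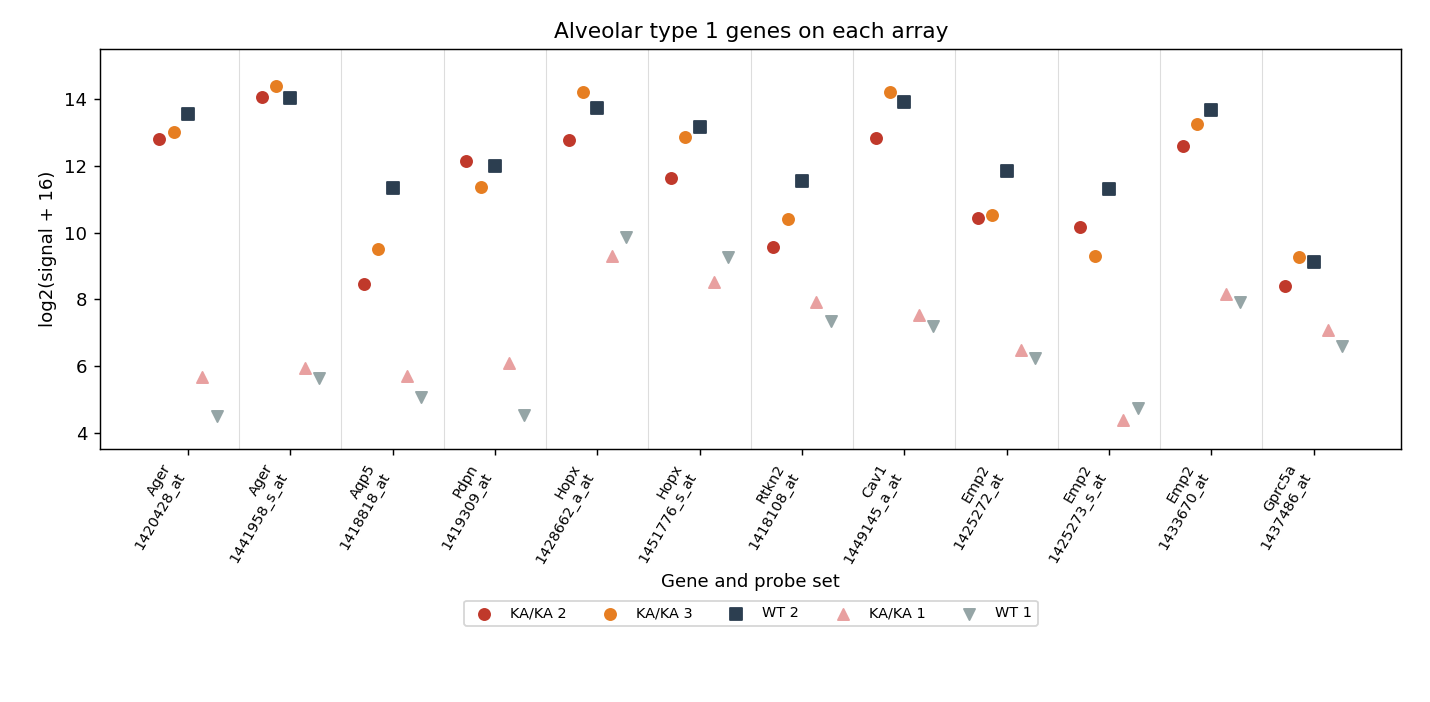
Log2(signal + 16) of each probe set of the 8 genes, 1 point per array, with circles for KA/KA 2 and KA/KA 3, squares for WT 2 and triangles for KA/KA 1 and WT 1. The low-spike arrays lie above the high-spike pair for all 12 probe sets, by 2.09 log2 units in the mean for Gprc5a and by 8.38 for Ager; WT 2 is the highest point for 7 of 12.

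Ager encodes RAGE, a pattern-recognition receptor that alveolar type 1 cells carry in large amounts on their basal surface. Its brighter probe set gave signals of 17087 on KA/KA 2 and 21457 on KA/KA 3, against 16757 on WT 2. The high-spike pair gave 45.1 on KA/KA 1 and 33.3 on WT 1. On the log2 scale the low-spike values were 14.06 and 14.39 against 14.03, so both KA/KA arrays lay slightly above WT 2. The dimmer probe set ran the other way, with 12.81 on KA/KA 2 and 13.01 on KA/KA 3 against 13.56 on WT 2, and with 5.66 and 4.49 on KA/KA 1 and WT 1. By limma the first differed by 0.19 ± 0.30 (KA/KA minus WT, ± SE, n = 2 and 1, adjusted p = 0.942) and the second by -0.65 ± 0.30 (adjusted p = 0.817). The direction for Ager on these arrays thus depended on the probe set.

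The ligands of RAGE listed here were higher on the KA/KA arrays in 4 of 5 measured, against 32% of all probe sets kept with both KA/KA arrays above WT 2. S100a8, a subunit of the calprotectin complex of neutrophils, read 13.97 and 15.21 on KA/KA 2 and KA/KA 3 against 11.16 on WT 2, and its partner S100a9 read 13.81 and 14.87 against 10.67. S100a4 (12.15 and 12.70 against 10.70) and S100a6 (13.51 and 13.05 against 12.75) lay the same way. S100b had KA/KA arrays on both sides of WT 2. None of the 4 tested passed (limma, smallest adjusted p = 0.730). Both calprotectin genes were also bright on the high-spike pair (14.71 and 14.65 on KA/KA 1, 15.31 and 15.17 on WT 1), where Ager was dim.

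Aqp5 encodes the water channel of the apical membrane of alveolar type 1 cells. Its signal was 337 on KA/KA 2 and 718 on KA/KA 3, against 2549 on WT 2. On KA/KA 1 and WT 1 it was 36.4 and 17.4. WT 2 was thus 7.56 times as bright as KA/KA 2 and 3.55 times as bright as KA/KA 3. This was the widest gap among the 12 probe sets on KA/KA 2, and the log2 difference was -2.33 ± 0.55 (n = 2 and 1), with an unadjusted p of 0.0118 that did not pass after adjustment over all probe sets (limma, adjusted p = 0.782). Of 9 other aquaporins measured, 6 had both KA/KA arrays below WT 2 (37.7% of all probe sets) and 2 had both above (32%), and 0 of the 5 tested passed (limma, smallest adjusted p = 0.782). Those shares are of probe sets that passed the filter on dim signals, as only 5 of the 9 aquaporins did. The 2 with both above, Aqp3 and Aqp9, were among these 5. Of the 9, only Aqp1, the water channel of endothelium and red cells, was bright throughout (10.80 and 12.50 on KA/KA 2 and KA/KA 3, 12.58 on WT 2, 10.38 on KA/KA 1 and 11.20 on WT 1). Aqp3, a channel of basal epithelial cells, read 9.80 on KA/KA 2 and 7.16 on KA/KA 3 against 6.71 on WT 2. Aqp9 read 8.90 and 8.26 against 6.68, and Aqp11 read 7.98 and 7.86 against 8.40. The range of the remaining 5 on the low-spike arrays was 5.08 to 8.12.

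Rtkn2 encodes rhotekin 2, used as a marker of alveolar type 1 cells. Its signal was 741 on KA/KA 2 and 1337 on KA/KA 3, against 2955 on WT 2, and 228 and 148 on KA/KA 1 and WT 1. Both KA/KA arrays were over 1 log2 unit below WT 2, and KA/KA 2 was the lower. The difference was -1.55 ± 0.48 (n = 2 and 1; limma, adjusted p = 0.790). Its relative Rtkn differed little, with 9.02 and 8.34 on KA/KA 2 and KA/KA 3 against 8.55 on WT 2.

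Emp2, a tetraspan membrane protein of the epithelial membrane protein family, had 3 probe sets that all put both KA/KA arrays below WT 2. The brightest read 12.58 on KA/KA 2 and 13.26 on KA/KA 3 against 13.68 on WT 2, with 8.17 and 7.92 on KA/KA 1 and WT 1. The second read 10.45 and 10.53 against 11.85, and the third 10.18 and 9.30 against 11.31. Their differences were -0.75 ± 0.40, -1.36 ± 0.32 and -1.57 ± 0.49 (n = 2 and 1), and limma's adjusted p was 0.835, 0.782 and 0.790. The probe sets shared a direction, and the brightest gave the smallest difference. The family members Emp1 (12.93 and 11.61 against 12.22), Emp3 (12.65 and 12.23 against 11.50) and Pmp22 (12.67 and 13.23 against 13.80) showed no common direction.

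Cav1 encodes caveolin 1, the coat protein of the caveolae that are dense in alveolar type 1 cells and in endothelium. It gave signals of 7220 on KA/KA 2 and 18959 on KA/KA 3, against 15531 on WT 2, and of 170 and 131 on KA/KA 1 and WT 1. KA/KA 2 was the low array, and KA/KA 3 lay above WT 2. The log2 difference was -0.41 ± 0.65 (n = 2 and 1; limma, adjusted p = 0.942). Of its 7 measured partners, 5 passed the filter on dim signals. KA/KA 2 was below KA/KA 3 in 5 of the 7, where 53.2% of all probe sets kept were. The brightest lay that way: Cav2 read 12.61 and 14.09 against 13.61 on WT 2, Cavin2 11.97 and 13.36 against 13.50, and Cavin1 10.90 and 11.70 against 12.56. Cavin3 differed less between the KA/KA arrays (9.63 and 9.80 against 10.29). Of 7 caveolar genes measured, 5 had both KA/KA arrays below WT 2 (37.7% of all probe sets), and 0 of the 5 tested passed (limma, smallest adjusted p = 0.790). Of 6 endothelial markers, 5 had both KA/KA arrays below WT 2 (37.7% of all probe sets) and 0 passed (limma, smallest adjusted p = 0.730). None was at 0, and their summed signal was 9352 on KA/KA 2 and 30761 on KA/KA 3, against 39697 on WT 2. Pecam1, one of the 6, read 10.05 and 11.88 against 12.47. Their part in the Cav1 values was not tested.

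Hopx encodes a small homeodomain protein without DNA binding of its own, used as a nuclear marker of alveolar type 1 cells. Its brighter probe set read 12.77 on KA/KA 2 and 14.22 on KA/KA 3 against 13.75 on WT 2, and the other 11.63 and 12.85 against 13.16. KA/KA 2 was lowest by both, and KA/KA 3 lay above WT 2 by the first and below it by the second. Differences were -0.26 ± 0.67 and -0.92 ± 0.59 (n = 2 and 1; limma, adjusted p = 0.968 and 0.864). Hopx was also the brightest of the 8 against the other probe sets of the high-spike pair, which read 9.29 on KA/KA 1 and 9.87 on WT 1, where the median of all probe sets was 6.80 and 6.81. Heart muscle markers also differed widely on the low-spike arrays. The summed signal of 5 genes (Myh6, Nppa, Tnnt2, Myl7 and Ryr2) was 367 on KA/KA 2 and 6750 on KA/KA 3 against 31513 on WT 2, with all 5 below WT 2 on both (37.7% of all probe sets). None passed (limma, smallest adjusted p = 0.730), and their part in the Hopx values was not tested.

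Pdpn encodes podoplanin, a mucin-type glycoprotein of the apical membrane that binds the platelet receptor CLEC-2. Its log2 values were 12.13 on KA/KA 2 and 11.37 on KA/KA 3 against 12.01 on WT 2, and 6.08 and 4.54 on KA/KA 1 and WT 1. It was the sole gene of the 8 that was higher on KA/KA 2 than on KA/KA 3. The difference between genotypes was -0.25 ± 0.44 (n = 2 and 1; limma, adjusted p = 0.948). Mesothelium and lymphatic endothelium also carry podoplanin. The 4 mesothelial markers were all lowest on KA/KA 3, and 3 of them had both KA/KA arrays below WT 2 (37.7% of all probe sets kept). Only 2 of the 4, Msln and Upk3b, passed the filter on dim signals that this share rests on. Of these 2, only Upk3b had both KA/KA arrays below WT 2. The summed signal of the 4 was 1489 on KA/KA 2 and 729 on KA/KA 3 against 2546 on WT 2, with Msln at 9.65 and 8.52 against 9.64. The 4 lymphatic markers were instead all lowest on KA/KA 2 and highest on KA/KA 3, with summed signals of 3306 and 11612 against 7659, and Prox1, which defines lymphatic endothelium, was dim (5.34 and 6.43 against 6.16). None of the 5 tested from these lists passed (limma, smallest adjusted p = 0.782), and their part in the Pdpn values was not tested.

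Gprc5a, an orphan G-protein-coupled receptor induced by retinoic acid, had the smallest difference between the array sets. It read 8.40 on KA/KA 2 and 9.25 on KA/KA 3 against 9.11 on WT 2, and 7.07 and 6.60 on KA/KA 1 and WT 1. The KA/KA arrays lay on both sides of WT 2, with a difference of -0.28 ± 0.50 (n = 2 and 1; limma, adjusted p = 0.949). Of its relatives, Gprc5b read 8.58 and 7.67 against 8.25, Gprc5c 6.44 and 6.31 against 7.45, and Gprc5d was dim (4.53 and 4.59 against 4.62).

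As a group, 3 of the 8 genes by their brightest probe set (Aqp5, Rtkn2 and Emp2) had both KA/KA arrays below WT 2, which is 37.5% of them against 37.7% of all probe sets kept. Ager alone had both above, and the other 4 had WT 2 between the KA/KA arrays. By probe sets, 7 of 12 were below on both and 1 above. Only Aqp5 and Rtkn2 among the genes, and 4 of 12 probe sets, were over 1 log2 unit below on both KA/KA arrays, where 2.04% of all probe sets were; none was over 1 unit above, where 2.8% were. The lower values came mostly from KA/KA 2, on which 6 of 8 genes were below WT 2 (median difference -1.04), against 4 of 8 on KA/KA 3 (median -0.14). Over all probe sets kept these medians were -0.05 and -0.02, and 53.9% and 51.8% were below WT 2. KA/KA 2 lay below KA/KA 3 for 7 of the 8 genes, where 53.2% of probe sets did.

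limma called 0 of 22519 probe sets between KA/KA 2 and KA/KA 3 and the lone WT 2, which is 0%, with a smallest adjusted p of 0.505. The lone WT array is assumed there to vary like the KA/KA arrays. At an unadjusted p under 0.05 there were 600 lower (2.66%) and 821 higher probe sets (3.65%). Of the 12 alveolar probe sets, 4 were among the lower (Aqp5, Rtkn2 and 2 of Emp2) and 0 among the higher.

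The scaling of the bright end touched this count. The highest signal was 38918 on KA/KA 2 and 40821 on KA/KA 3 but 21977 on WT 2, and the 99th percentile was 11408 and 10908 against 8639. After quantile normalisation, which gives all arrays the same distribution, 6 of the 8 genes and 10 of 12 probe sets had both KA/KA arrays below WT 2 (35.3% of all probe sets), and 0 had both above. The brightest probe sets moved most: Ager's brighter one came to -0.72 and -0.46, and Cav1 to -1.78 and -0.50 (KA/KA 2 and KA/KA 3 minus WT 2). Aqp5 (-2.92 and -1.85) and Rtkn2 (-2.02 and -1.17), which are dimmer, stayed close to the values as deposited. Pdpn stood at 0.003 and -0.72 and Gprc5a at -0.66 and 0.19. Which scaling is nearer to the RNA was not tested.

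**Figure D2:**
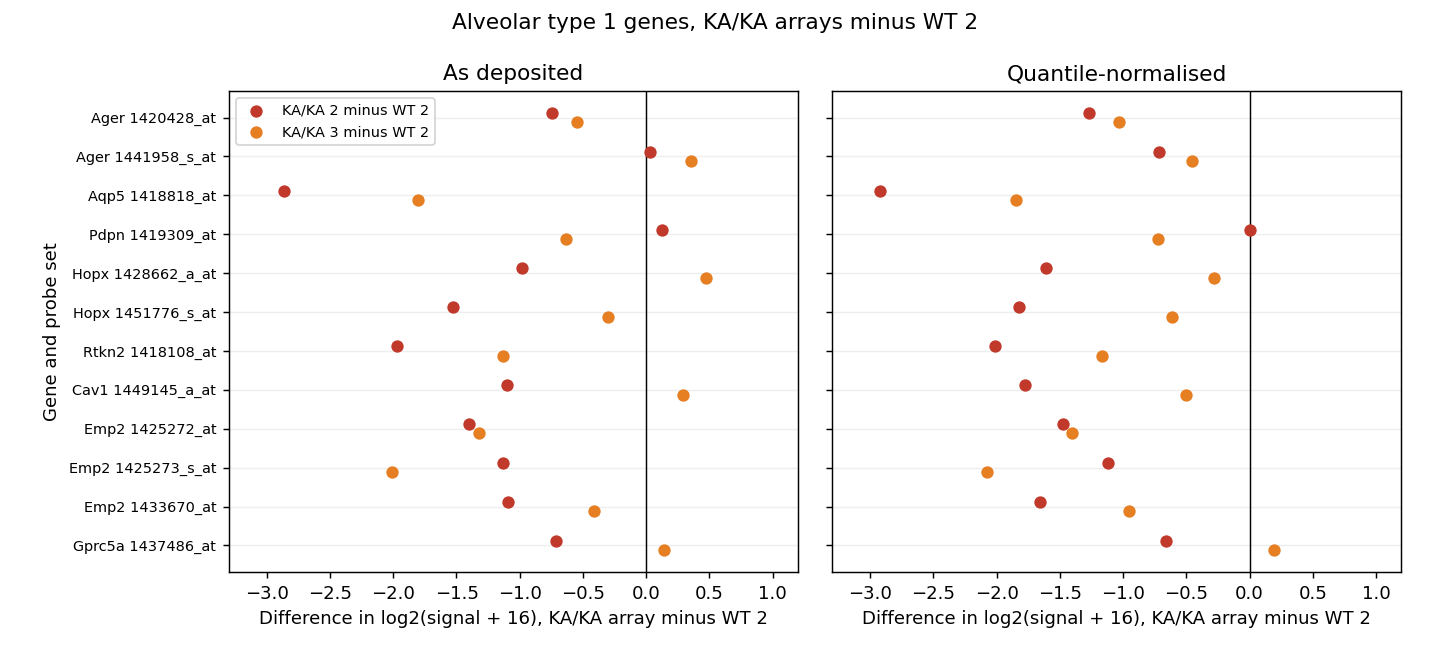
Difference of each probe set on KA/KA 2 and on KA/KA 3 from WT 2, in log2(signal + 16), as deposited on the left and after quantile normalisation on the right; points left of 0 are lower on the KA/KA array. As deposited 7 of 12 probe sets have both points left of 0, and after quantile normalisation 10 of 12.

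A further 19 genes used as markers of alveolar type 1 cells were all measured, and 17 had both KA/KA arrays below WT 2 (37.7% of all probe sets), with 0 having both above. Medians were -1.22 on KA/KA 2 and -0.67 on KA/KA 3. The 4 of highest level on these arrays were Sec14l3 (12.70 and 13.78 against 13.72), Limch1 (12.34 and 13.18 against 13.56), Icam1, an adhesion molecule (12.82 and 13.14 against 13.07), and Timp3, a protease inhibitor of the matrix (12.24 and 12.82 against 13.04). Sec14l3 and Icam1 were the exceptions with KA/KA 3 above WT 2. Wider gaps, in genes chosen after their values were seen, were those of Akap5, a scaffold for protein kinase A (9.30 and 10.14 against 11.79), Col4a3, a basement membrane collagen chain (9.41 and 9.70 against 11.38), and Igfbp2, which binds insulin-like growth factors (10.80 and 11.31 against 12.69). In limma 0 of the 19 passed in either direction (smallest adjusted p = 0.776), and 8 were lower and 0 higher at an unadjusted p under 0.05. Under quantile normalisation 19 of 19 had both KA/KA arrays below WT 2. The list was written with earlier results of these arrays known and shares the array WT 2 with every comparison above.

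Alveolar type 2 markers lay the other way in the values as deposited, a direction that median centring kept (6 of 6 above, medians 0.77 and 0.44) and quantile normalisation did not. All 6 measured had both KA/KA arrays above WT 2 (32% of all probe sets), with medians of 0.73 on KA/KA 2 and 0.43 on KA/KA 3. Slc34a2, a phosphate carrier of these cells, read 14.41 and 14.20 against 13.57, and Sftpc, the surfactant protein that defines them, 15.00 and 14.99 against 14.04. None passed (limma, smallest adjusted p = 0.790). After quantile normalisation 1 of 6 had both above and 1 both below, with medians of 0.14 and -0.05. The 8 type 1 genes kept medians below 0 under both scalings (-1.04 and -0.14 as deposited, -1.63 and -0.61 after quantile normalisation). This was not particular to them. Heart muscle, endothelial (-2.46 and -0.39, then -2.59 and -0.58) and smooth muscle markers (-1.74 and -0.58, then -1.76 and -0.83) did so too. Club cell and keratinocyte markers did not.

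**Figure D3:**
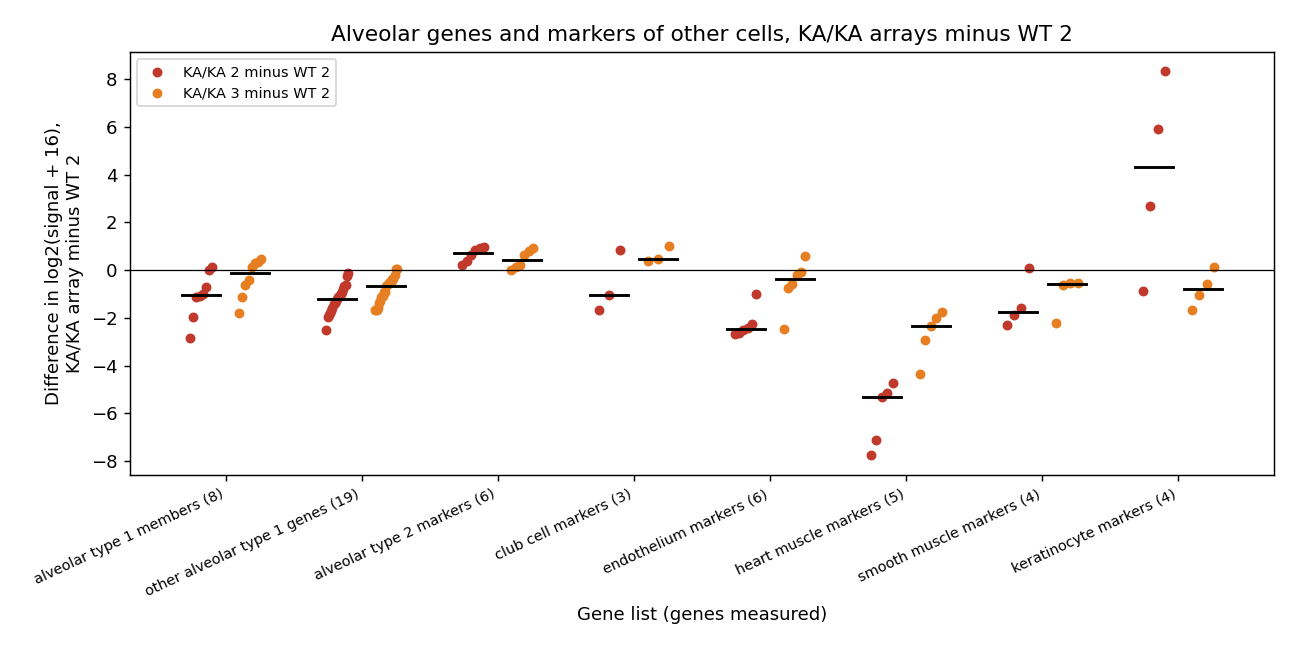
Difference of KA/KA 2 and KA/KA 3 from WT 2 in log2(signal + 16) as deposited, 1 point per gene, with bars at the median of each list. The medians of the 8 alveolar type 1 genes are -1.04 and -0.14, those of 19 other type 1 genes -1.22 and -0.67, those of 6 type 2 markers 0.73 and 0.43, and those of heart muscle markers -5.32 and -2.34.

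Markers of other tissues also differed between the low-spike arrays. Heart muscle markers had medians of -5.32 on KA/KA 2 and -2.34 on KA/KA 3 relative to WT 2, and endothelial markers of -2.46 and -0.39. Keratinocyte Krt5 read 12.85 on KA/KA 2 alone, against 6.36 on KA/KA 3 and 6.93 on WT 2, and the summed signal of the 4 keratinocyte markers was 22804 and 113 against 265. The 4 did not share a direction: 1 had both KA/KA arrays above WT 2, 1 had both below and 2 had WT 2 between. Only 2 of the 4 passed the filter on dim signals. After quantile normalisation Krt4 differed from WT 2 by -0.83 on KA/KA 2 and -1.63 on KA/KA 3. The part of this mixture in the values of the alveolar genes was not tested.

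Over all 5 arrays the comparison of KA/KA with WT spans both array sets. Differences ran from -0.29 ± 2.15 for Aqp5 to 1.63 ± 3.67 for Ager (n = 3 and 2), and limma called 0 of 22519 probe sets (0%; smallest adjusted p = 0.9999; at an unadjusted p under 0.05, 8 or 0.0355% were lower and 39 or 0.173% higher, 0 of them alveolar). With the array set as a block, limma again called 0 (673 at an unadjusted p under 0.05), with Aqp5 at -1.05 ± 0.70, Rtkn2 at -0.64 ± 0.53, Pdpn at 0.52 ± 0.47 and Ager at 0.24 ± 0.25. In the high-spike pair alone, KA/KA 1 read above WT 1 for 7 of the 8 genes (54.2% of probe sets kept, median 0.40). With 1 array each there was no test. Many of these signals were dim, with 3 of the 8 genes below the array median on KA/KA 1 and 4 on WT 1. Pdpn was among them (signals of 51.8 and 7.23), and its estimate with the block draws on these signals. Hopx, the brightest on that pair, ran the other way (-0.59). The test of whether the genotype difference was unlike in the 2 sets called 0 of 22519 probe sets (0%; limma, 1325 at an unadjusted p under 0.05), and the adjusted p of the alveolar probe sets was 0.824 or above.

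Across the 5 arrays, the genes nearest to the median profile of the 8, each centred on its own mean, were Rusc2, Npr3, Ocln, Edn1 and Vsnl1 among 11392 genes. The root mean square difference was 0.0928, 0.125, 0.134, 0.141 and 0.162 log2 units. Npr3, the clearance receptor of natriuretic peptides, read 9.67 and 10.72 on KA/KA 2 and KA/KA 3 against 11.03 on WT 2, with 5.41 and 5.36 on KA/KA 1 and WT 1. The peptide Edn1, endothelin 1, read 8.72 and 9.79 against 10.26, with 4.80 and 4.88 on the pair. These 5 points share the array sets, so a likeness of this kind is a description.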

How the data were processed

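RNA was hybridised to 5 Affymetrix arrays. The authors deposited 1 table of intensity values for 45101 probe sets. Per the submitters' processing notes the tool was MAS5 (version not given in the sources used here); the series text speaks of a log2 transformation, but the deposited intensities are linear, with a trimmed mean of 500 on each array (2% left out at each end), so log2(signal + 16) was computed from them. The annotation gave 1 symbol for 34945 probe sets, several for 932 and none for 9160; the 64 control probe sets were left out. No further scaling was done. Array medians on the log2 scale differed by 0.37.

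limma 3.58.1 in R 4.3.3 (lmFit, eBayes with an intensity trend, two-sided, Benjamini-Hochberg over all probe sets kept, threshold 0.05) was fitted to 22519 probe sets, those whose mean log2 signal reached the median of such means. It was run over 5 arrays and over KA/KA 2, KA/KA 3 and WT 2, and was tested on simulated data. Array sets were split at a median log2 signal of 10 over 24 poly-A control probe sets. A gene is stood for by its probe set of highest mean. Of related lists, the 4 genes of highest level on the low-spike arrays were named, with exceptions marked in the text. Alternatives were pseudocounts of 1 and 64, quantile normalisation, median centring, other filters, 1 probe set a gene, no trend, no shared probe sets, blocks and leaving out arrays. The genes and lists were chosen with earlier results of these data known. The number of arrays limits the precision; detection calls were not used here.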

Additional observations from a re-analysis of the deposited data

How the results depend on the processing

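On the low-spike arrays limma called 0 probe sets under every alternative, and over 5 arrays 0 under all but the replicate block, which called 3 (smallest adjusted p = 0.000727), none of them a probe set standing for the 8 genes; this fit leaves 1 residual degree of freedom. Labels share only a number across genotypes (deviations of same-numbered arrays correlated at 0.87 and 0.65 over 22519 probe sets, and replicate 1 is the high-spike pair), so the block is given here alone. The replicate block turned Cav1 (-0.38), Emp2 (-0.42), Gprc5a (-0.12) and Hopx (-0.78) below 0 over 5 arrays, and the array set as block turned Cav1 (-0.090), Emp2 (-0.32) and Hopx (-0.40). Quantile normalisation turned Hopx over 5 arrays (-0.12) and Ager on the low-spike arrays (-0.59). It moved the count of genes below WT 2 on both KA/KA arrays to 6 of 8, against 3, and that of type 2 markers above WT 2 to 1 of 6, against 6; these counts under other scalings were added after seeing the data, and the unequal bright ends of the arrays are what that scaling removes.

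Leaving out 1 array gave ranges over 5 arrays of -2.57 to 5.84 for Ager, -3.43 to 2.84 for Aqp5, -2.40 to 4.32 for Cav1, -2.34 to 3.42 for Emp2, -0.87 to 1.64 for Gprc5a, -1.66 to 2.22 for Hopx, -2.14 to 5.32 for Pdpn and -2.24 to 1.94 for Rtkn2, because each removal changes the share of low-spike arrays in a group; 0 probe sets were called each time. On the low-spike arrays, with KA/KA 2 or KA/KA 3 left out (1 array against 1, no test), ranges were -1.10 to 0.29 for Cav1, -0.71 to 0.14 for Gprc5a, -0.98 to 0.47 for Hopx and -0.63 to 0.12 for Pdpn, while Ager (0.03 to 0.36), Aqp5 (-2.86 to -1.80), Emp2 (-1.09 to -0.41) and Rtkn2 (-1.97 to -1.14) kept their sign. Dim signals on the high-spike pair limit the set differences: that of Ager was 7.48 with 64 added and 8.85 with 1 added. WT 2 could not be left out on the low-spike arrays.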

Other observations

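YAP and TAZ, the co-activators that drive alveolar type 1 identity with TEAD factors, were measured with 9 of their partners and targets. Of the 11 genes, 9 were over 1 log2 unit higher on every low-spike array than on the high-spike pair (13% of probe sets kept). Within the low-spike arrays 9 had both KA/KA arrays below WT 2 (37.7% of probe sets), with medians of -0.72 on KA/KA 2 and -0.55 on KA/KA 3. Wwtr1, which encodes TAZ, read 11.61 and 11.89 on KA/KA 2 and KA/KA 3 against 12.45 on WT 2. Tead1 read 11.13 and 11.36 against 11.95, and Amotl2 10.98 and 11.42 against 11.89. The target Ccn2 ran the other way, with 13.96 and 13.02 against 12.87, and under quantile normalisation its KA/KA 3 value lay below WT 2 (differences of 0.72 and -0.12). Ccn1, a further target named after its values were seen, had WT 2 between the KA/KA arrays. It differed by 0.72 ± 1.07 (KA/KA minus WT, ± SE, n = 2 and 1), and by 1.99 and -0.47 under quantile normalisation. Ankrd1, a target that heart muscle also expresses and that was chosen after its values were seen, read 8.13 and 9.57 against 11.35. None of the 10 tested passed (limma, smallest adjusted p = 0.790).

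Of the lung epithelial factors, Foxa1 read 9.85 and 10.26 against 11.22, Gata6 9.83 and 10.10 against 10.25, and Klf5 10.83 and 10.05 against 10.68. Foxa2 differed by -0.07 ± 0.34 (KA/KA minus WT, ± SE, n = 2 and 1). Of the 5 factors measured, these 4 were over 1 log2 unit higher on every low-spike array than on the high-spike pair (13% of probe sets kept). Nkx2-1, the defining factor of lung epithelium, was named after its values were seen and was below the filter on dim signals, with 6.65 and 5.29 against 6.86. Among podoplanin partners, the actin linkers Msn (13.62 and 13.75 against 13.59) and Rdx (12.39 and 12.95 against 12.47) were bright on all low-spike arrays. So were the membrane proteins Cd44 (13.35 and 13.01 against 12.33) and Cd9 (13.76 and 13.84 against 13.31). The 6 partners measured were also bright on the high-spike pair, with medians of 12.24 on KA/KA 1 and 12.06 on WT 1. Of the 6, 1 was over 1 log2 unit higher on every low-spike array than on that pair (13% of probe sets kept).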
